A study of Homo sapiens with 8 samples.

Results

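The genes described here are 44 genes of DNA repair and of the DNA damage checkpoint. They were chosen by symbol for their known function, but with earlier results of these data known. They fall into 5 groups by role: 12 genes of homologous recombination, 12 of the Fanconi anemia pathway, 5 of mismatch and uracil repair, 9 that encode the sliding clamp, its loader, the replicative polymerases and a DNA ligase, and 6 of the checkpoint. All 44 were found among the 63241 genes measured in NCI-H716, and 18 of them among the 28043 genes measured in HCT116. The HCT116 table used here covers chromosomes 1 to 8 and the start of chromosome 9, and the other 26 genes lie outside it. All 18 and all 44 passed the filter on low counts.

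The libraries came from a study of Z325 (ZINC000101867325), a small molecule that was docked to the kinase domains of the fibroblast growth factor receptors FGFR1 to FGFR4 and then tested on colorectal cancer cells. HCT116 is a colorectal carcinoma line that is known to be deficient in mismatch repair. NCI-H716 is a colorectal carcinoma line that grows in suspension and is known for neuroendocrine features and a high level of FGFR2. RNA from each line was sequenced in 2 control and 2 Z325-treated libraries, 8 in all, from about 100 cells per reaction with the SMART-Seq2 protocol, which amplifies full-length cDNA. The sample labels call the treated libraries "Test" and the untreated ones "Control". The methods say that the compound was dissolved in DMSO. The study chose 1 working concentration from its viability assays for the experiments that followed, but it states no treatment time for the sequenced cells, and the labels do not say what the control cells received. Control and treated libraries of a line share that line's genotype. The study calls the libraries of a group biological duplicates without saying what was duplicated, so p-values measure the spread between these libraries, which may be technical.

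The HCT116 libraries held 13183792 to 13396225 counts, except replicate 2 of the Z325 group, which held 3434620. The NCI-H716 libraries held 10210239 to 19738840 counts. EPCAM, an epithelial surface protein, was at 608 to 679 FPKM (fragments scaled to transcript length and library depth) in the HCT116 libraries. In the NCI-H716 libraries it was at 30.0 to 40.1 FPKM, and the epithelial keratins KRT8 and KRT18 were at 202 to 281 FPKM. Of 6 neuroendocrine markers in NCI-H716, CHGA was at 69.3 to 81.9 FPKM and CHGB at 203 to 355 FPKM. The rest, among them SYP and INSM1, were at 3.37 to 31.8 FPKM. FPKM was computed differently for the 2 lines, from other lengths and totals, so its levels cannot be compared between them. CDX1 and the adherens junction gene CDH1 were at 0 to 0.15 FPKM in NCI-H716. Of 5 fibroblast markers in NCI-H716, LUM (119 to 245 FPKM) and COL3A1 (94.3 to 153 FPKM) were present in every library while COL1A1 and DCN stayed between 0 and 0.40 FPKM. The 5 immune markers summed to 2.23 to 4.96 FPKM and the 4 endothelial markers to 0 to 0.23 FPKM. In HCT116, the intestinal markers VIL1 and CDX1 were at 0 to 0.33 FPKM, and the fibroblast, immune and endothelial markers that its table covers did not exceed 0.26 FPKM. The neuroendocrine marker SCG2 was at 5.42 to 8.65 FPKM in HCT116.

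Cells repair breaks in both DNA strands by homologous recombination, in which the broken ends are trimmed and the intact sister chromatid is copied. The Fanconi anemia proteins open the way for repair of crosslinked strands, mismatch repair proteins correct copying errors, and the checkpoint kinases ATM and ATR slow the cell cycle while damage or stalled replication forks persist. Most of these genes are transcribed mainly as cells enter and pass through S phase, many of them under control of the E2F factors, so their RNA is usually abundant in dividing tumor cells. MSH6, PMS2, BRCA1 and other members are known as genes of inherited cancer risk, in the colon among other tissues.

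Levels were compared between genes of the same line on the FPKM scale, which corrects for gene length. In the control cells of HCT116, the clamp loader subunits RFC4 (309 FPKM, mean of 2 libraries) and RFC2 (161 FPKM) stood far above the other members. USP1 (57.0 FPKM), the ubiquitin protease of the Fanconi pathway, and PMS1 (47.3 FPKM), a MutL family member, followed them. The lowest were MSH3 at 2.04 FPKM and RAD54L at 1.05 FPKM, and the median over the 18 members was 11.5 FPKM against 3.78 FPKM over all genes tested. In the control cells of NCI-H716, PCNA, the sliding clamp itself, was highest at 294 FPKM. RAD51C (169 FPKM), a homologous recombination gene, FANCI (132 FPKM), which carries the pathway's ubiquitin mark together with FANCD2, and RFC4 (110 FPKM) came next. The median of the 44 members was 19.0 FPKM against 7.05 FPKM over all genes tested, and the lowest member was FANCE at 2.38 FPKM.

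Promoters of the members were searched for motifs of cell cycle genes, in RefSeq sequence of build GRCh38.p14, over the 250 bases before each annotated start and on both strands. Of the 44 members, 42 had a promoter entry. The E2F motif was searched as TTT, then a pair of bases that are each C or G, then CGC. It was present in 9 of the 42 genes (21.4%), namely FANCA, FANCC, LIG1, MSH3, PCNA, PMS2, POLE, RFC3 and UNG, against 3.40% of all 27305 genes with an entry and 5.81% of the 10163 of them that were tested in NCI-H716. The CCAAT box (CCAAT) was present in 23 of 42 genes (54.8%, against 42.4% of the genes tested in NCI-H716), the GC box (GGGCGG) in 34 (81.0% against 73.4%), and the cell cycle homology region (TTTGAA) in 5 (11.9% against 12.4%). The motifs can overlap one another, and a match is only a description of the letters.

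Shown here are 180 bases before a RefSeq start of the members with the smallest p-values in the comparisons described next (EXO1 in HCT116, and FANCA, RFC3 and PCNA in NCI-H716), 5′ to 3′ on the strand of the gene. EXO1 and PCNA each have another RefSeq start, which is not shown. The 180 bases before that start held no E2F motif in either gene, and CCAAT boxes in PCNA alone. Capitals mark E2F motifs and CCAAT boxes, in either orientation. The FANCA stretch is chr16:89816648-89816827 on the minus strand, and it lies inside the gene as GENCODE draws it, whose outermost start is at base 89816977. That of PCNA is chr20:5126623-5126802 (minus strand), that of RFC3 is chr13:33817969-33818148 (plus strand), and that of EXO1 is chr1:241848024-241848203 (plus strand), downstream of the outermost GENCODE start at base 241847967. The outermost GENCODE start of RFC3, at base 33818069, lies inside its stretch and upstream of the E2F motif. FANCA and PCNA each held an E2F motif and at least 1 CCAAT box, RFC3 held an E2F motif alone, and EXO1 held neither.
FANCA: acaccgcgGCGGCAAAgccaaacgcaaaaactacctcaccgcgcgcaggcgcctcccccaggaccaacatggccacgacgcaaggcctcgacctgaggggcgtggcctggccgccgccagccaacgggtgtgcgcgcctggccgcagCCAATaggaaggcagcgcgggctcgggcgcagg
PCNA: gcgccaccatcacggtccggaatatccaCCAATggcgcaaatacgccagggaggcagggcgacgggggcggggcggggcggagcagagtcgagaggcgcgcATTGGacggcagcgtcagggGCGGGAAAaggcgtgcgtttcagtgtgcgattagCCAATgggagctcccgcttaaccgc
RFC3: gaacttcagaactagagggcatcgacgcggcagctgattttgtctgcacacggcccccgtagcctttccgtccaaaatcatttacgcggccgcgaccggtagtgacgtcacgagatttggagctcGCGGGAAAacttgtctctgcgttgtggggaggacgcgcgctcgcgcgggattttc
EXO1: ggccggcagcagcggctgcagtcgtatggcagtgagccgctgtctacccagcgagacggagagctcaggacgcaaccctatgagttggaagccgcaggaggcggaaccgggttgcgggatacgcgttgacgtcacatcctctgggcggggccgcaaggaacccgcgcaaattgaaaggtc

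The first comparison asked how the RNA of the members differed between Z325-treated and control HCT116 cells. EXO1, the exonuclease that trims DNA ends and removes mismatched strands, fell to 49.8% of its control level and was the only member to pass an adjusted p of 0.05 in edgeR's quasi-likelihood test. Of the 18 members, 15 had a log2 fold change below 0, against 51.8% of the 6491 genes tested. Their median log2 fold change was −0.44, against −0.03 over all genes tested. With lower RNA, 1 of 18 members passed, where 2.94% of all genes did, and with higher RNA 0 of 18 passed, where 2.83% did. Without adjustment, 7 members were lower and 1 higher at p under 0.05 (12.7% and 11.2% of all genes). In 12 members both treated libraries lay below both controls (29% of all genes), in 1, PMS1, they lay above (24.8% of all genes), and in 5 the groups overlapped. In RNA from whole cultures, fewer cells of a kind and less RNA per cell cannot be told apart.

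**Figure D1:**
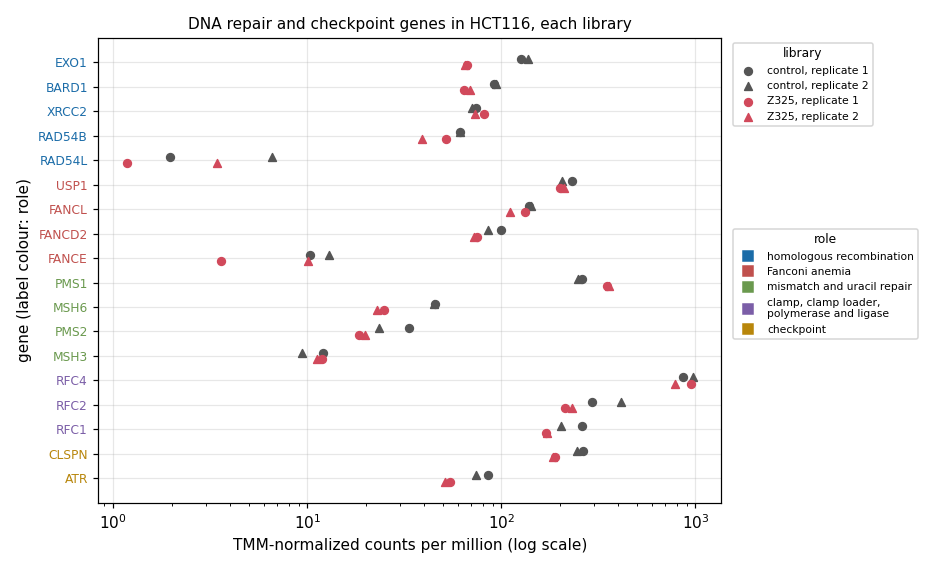
Level of the 18 members measured in HCT116, in CPM (counts scaled to the TMM-normalized depth of the library) on a log scale, with 1 point per library and gene labels coloured by role. The treated points of EXO1 sit at 64.7 and 66.1 CPM, left of its controls at 126 and 137 CPM, while those of PMS1 sit to the right of its controls.

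Among the homologous recombination genes, EXO1 stood at 126 and 137 CPM (counts scaled to the TMM-normalized library depth) in control cells, and at 66.1 and 64.7 CPM after treatment. The treated libraries were close to each other and far below both controls. The log2 fold change was −1.01 with a standard error (SE) of 0.16 (adjusted p = 0.0146, edgeR's quasi-likelihood test with Benjamini-Hochberg adjustment). An antisense gene with a mean of 0.969 CPM in control cells covers 3.87% of the exon bases of EXO1. The call lost significance when either control library was left out, but a fit with a single control library called few genes at all. The log2 fold change was then −1.07 without control replicate 1 and −0.96 without control replicate 2. BARD1, the partner of BRCA1 in a ubiquitin ligase, was at 91.8 and 93.4 CPM in control cells and 64.3 and 68.5 CPM in treated cells. Here too the groups were separate, with a log2 fold change of −0.48 (SE 0.17, adjusted p = 0.137 in edgeR). RAD54B, a motor protein that acts in strand invasion, was at 61.0 and 61.1 CPM in control cells and 51.7 and 39.0 CPM in treated cells (log2 fold change −0.42, SE 0.22, adjusted p = 0.283 in edgeR). That value became −0.66 without Z325 replicate 1 and −0.21 without Z325 replicate 2. RAD54B is uncertain, since 66.0% of its exon bases are also annotated to FSBP on the same strand. The related motor protein RAD54L held only 27, 86, 15 and 12 reads in the 4 libraries, in the order control 1 and 2 and Z325 1 and 2, so its log2 fold change of −1.03 had an SE of 0.79. It is also uncertain in both lines, because LRRC41 on the other strand covers 19.9% of its exon bases. XRCC2, which acts in a complex with RAD51C, was at 70.6 to 74.2 CPM in control cells and 73.3 to 80.9 CPM in treated cells, and the groups overlapped.

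All 4 Fanconi members of the HCT116 table had a log2 fold change below 0 (51.8% of all genes did). Their median was −0.26, and none reached an unadjusted p of 0.05. FANCD2, whose ubiquitin mark switches the pathway on, was at 99.7 and 85.6 CPM in control cells and 74.8 and 72.2 CPM in treated cells. Its groups did not overlap, and the log2 fold change was −0.33 (SE 0.18, adjusted p = 0.296 in edgeR). FANCL, the ubiquitin ligase that places the mark, had a log2 fold change of −0.20 (SE 0.16), and USP1, which removes it, one of −0.09 (SE 0.14). FANCE, a core complex subunit, was low in every library (10.3 and 12.9 CPM in control cells, 3.60 and 10.03 CPM in treated cells), and its log2 fold change of −0.86 rested mostly on Z325 replicate 1 (SE 0.50).

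The mismatch repair genes of HCT116 went in both directions. MSH6, which recognizes base mismatches, was at 45.4 and 45.2 CPM in control cells and 24.8 and 22.9 CPM in treated cells. The treated libraries lay at 52.8% of the control level, with no overlap, and the log2 fold change of −0.92 (SE 0.23) missed the threshold at an adjusted p of 0.0522 in edgeR. MSH6 shares 22.7% of its exon bases with FBXO11 on the other strand, whose log2 fold change was −0.08. PMS1 was the only member with both treated libraries above both controls, at 260 and 249 CPM against 350 and 359 CPM. Its log2 fold change was 0.48 (SE 0.12, adjusted p = 0.0623 in edgeR). DESeq2 called PMS1 higher, and it called MSH6, EXO1 and the clamp loader gene RFC2 lower. PMS2, the main partner of the MutL complex and a gene with several pseudogene copies, which makes its counts uncertain, was at 33.3 and 23.3 CPM in control cells and 18.4 and 19.8 CPM in treated cells (log2 fold change −0.57, SE 0.28, adjusted p = 0.258 in edgeR). Its log2 fold change was −0.30 without control replicate 1 and −0.82 without control replicate 2. MSH3, which recognizes longer loops, was at 9.36 to 12.1 CPM in control cells and 11.2 to 11.9 CPM in treated cells.

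Of the clamp loader, HCT116 had values for RFC1, RFC2 and RFC4. RFC2, a small subunit, was at 291 and 415 CPM in control cells and 212 and 230 CPM in treated cells. No overlap was seen, but the controls were wide apart, and the log2 fold change of −0.68 (SE 0.18, adjusted p = 0.0653 in edgeR) became −0.91 without control replicate 1 and −0.41 without control replicate 2. RFC1, the large subunit, was at 259 and 202 CPM in control cells and 170 and 172 CPM in treated cells. With separate groups, its log2 fold change was −0.43 (SE 0.16, adjusted p = 0.143 in edgeR), and −0.25 without control replicate 1. RFC4 was at 859 and 970 CPM in control cells and 947 and 786 CPM in treated cells, with overlapping groups and a log2 fold change of −0.08 (SE 0.14).

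Both checkpoint members on chromosomes 1 to 8 lay lower in both treated libraries than in both controls (29% of all genes did). CLSPN encodes claspin, the adaptor through which ATR activates the kinase CHEK1, and was at 262 and 244 CPM in control cells and 189 and 183 CPM in treated cells. Its log2 fold change was −0.44 (SE 0.13, adjusted p = 0.0873 in edgeR). ATR, the kinase that answers stalled forks, was at 85.4 and 73.8 CPM in control cells and 54.4 and 51.3 CPM in treated cells. Its treated level was 66.5% of the control level, at a log2 fold change of −0.59 (SE 0.19, adjusted p = 0.108 in edgeR). Neither gene's groups overlapped, and neither passed the adjusted threshold.

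The second comparison asked the same of NCI-H716, where all 44 members were measured. FANCA, the core complex subunit that is most often affected in Fanconi anemia, fell to 37.9% of its control level and was the only member to pass an adjusted p of 0.05 in edgeR's quasi-likelihood test. That is 1 of 44 members with lower RNA, where 0.099% of the 14142 genes tested passed, and 0 of 44 with higher RNA, where 0.403% did. No member was higher at an unadjusted p under 0.05 either (7.59% of all genes were), and 11 were lower (9.27% of all genes). The log2 fold change was below 0 in 34 members (50.6% of all genes), and its median over the members was −0.25, against −0.01 over all genes tested. In 23 members both treated libraries lay below both controls in CPM (25.1% of all genes), in 1, PMS2, above (24.3% of all genes), and in 20 the groups overlapped.

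The share of counts on mitochondrial genes also differed between the NCI-H716 groups. It was 9.40% and 8.77% in control cells and 7.92% and 7.14% in treated cells, each within a 95% Wilson interval no wider than 0.035 percentage points, which covers counting error only. The part of this difference in the members' values was not tested.

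**Figure D2:**
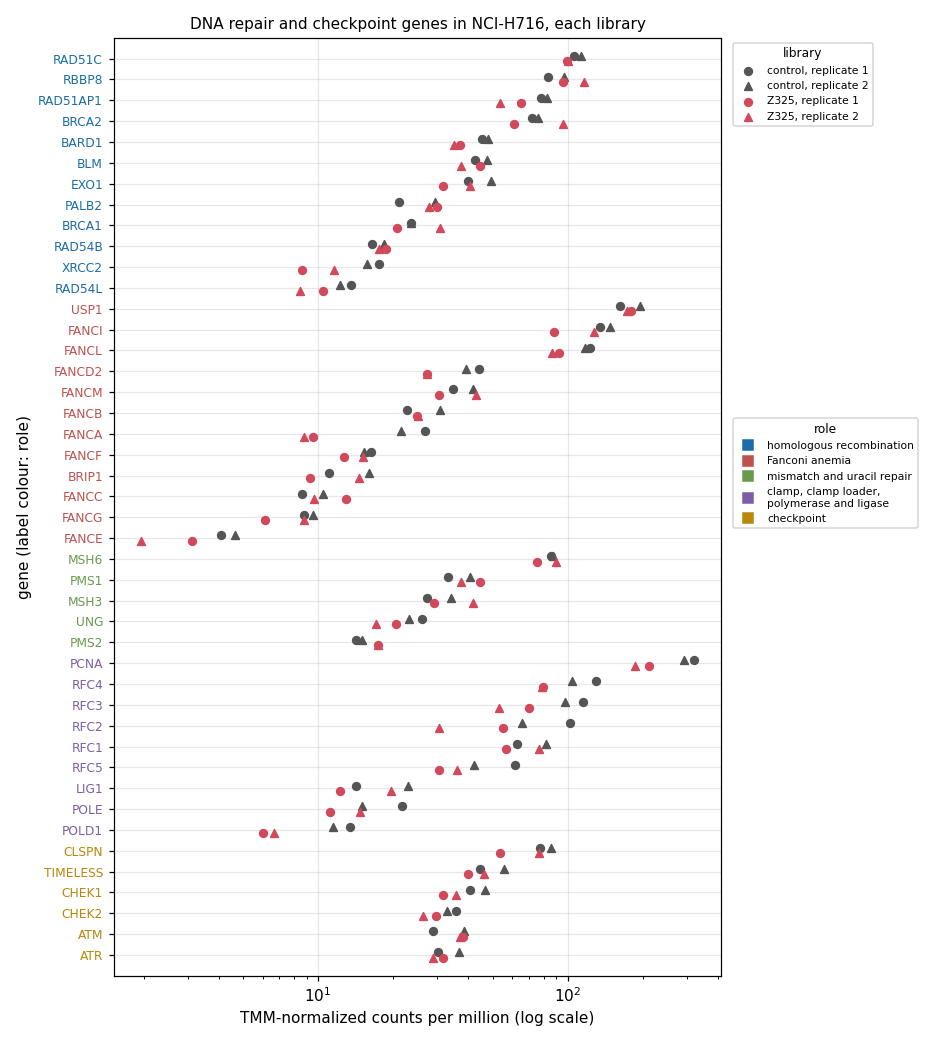
Level of the 44 members in NCI-H716, in CPM on a log scale, with 1 point per library and gene labels coloured by role. Treated points lie left of both controls for 23 genes, among them FANCA (9.54 and 8.80 CPM against 26.8 and 21.5 CPM) and all of RFC2 to RFC5.

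The clamp, loader, polymerase and ligase genes had the lowest median log2 fold change of the 5 roles in NCI-H716. All 9 had a log2 fold change below 0 (50.6% of all genes did), at a median of −0.62. Of these, 6 had an unadjusted p under 0.05 (9.27% of all genes were lower at it), and 7 had both treated libraries below both controls (25.1% of all genes). PCNA, which holds the polymerases on DNA, was at 319 and 291 CPM in control cells and 212 and 186 CPM in treated cells. The treated level was 65.2% of the control level without overlap (log2 fold change −0.62, SE 0.16, adjusted p = 0.128 in edgeR). POLD1, the catalytic subunit of polymerase delta, was at 13.4 and 11.4 CPM in control cells and 6.03 and 6.68 CPM in treated cells. This put it at 51.2% of the control level (log2 fold change −0.96, SE 0.27, adjusted p = 0.147 in edgeR), with 79 to 177 counts per library behind it. On the FPKM scale it was at 33.2 and 35.4 FPKM against 21.0 and 25.1 FPKM, a log2 fold change of −0.56 on log2(FPKM + 1). POLE, the catalytic subunit of polymerase epsilon, was at 21.7 and 15.0 CPM against 11.1 and 14.7 CPM, so that its groups were separate by a narrow margin (log2 fold change −0.51, SE 0.26). In FPKM they overlapped, at 10.96 and 8.61 FPKM against 5.83 and 8.62 FPKM. LIG1, which joins the fragments of the lagging strand, was at 14.2 and 23.0 CPM against 12.2 and 19.6 CPM, and its groups overlapped.

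The 4 small subunits of the loader, RFC2 to RFC5, each lay below both controls in both treated libraries (25.1% of all genes did), with a median log2 fold change of −0.72. RFC2 was at 102 and 65.4 CPM in control cells and 55.1 and 30.4 CPM in treated cells. Its replicates were far apart in both groups, and the log2 fold change of −0.97 (SE 0.29, adjusted p = 0.167 in edgeR) became −1.45 without Z325 replicate 1 and −0.58 without Z325 replicate 2. RFC3 was at 115 and 97.3 CPM in control cells and 69.9 and 53.2 CPM in treated cells (log2 fold change −0.79, SE 0.19, adjusted p = 0.118 in edgeR). RFC4, which in HCT116 had overlapping groups, was at 129 and 104 CPM in control cells and 79.6 and 78.5 CPM in treated cells (log2 fold change −0.56, SE 0.17, adjusted p = 0.174 in edgeR). RFC5 was at 61.2 and 42.3 CPM in control cells and 30.5 and 35.8 CPM in treated cells. Its log2 fold change of −0.64 (SE 0.22, adjusted p = 0.199 in edgeR) was −0.34 without control replicate 1. The large subunit RFC1 was at 62.3 and 81.7 CPM against 56.5 and 76.5 CPM, with overlapping groups and a log2 fold change of −0.11 (SE 0.21).

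Of the 12 Fanconi members, 11 had a log2 fold change below 0 in NCI-H716 (50.6% of all genes did), with a median of −0.24. Both treated libraries lay below both controls in 7 of them (25.1% of all genes). FANCA, whose promoter is printed above, was at 26.8 and 21.5 CPM in control cells and 9.54 and 8.80 CPM in treated cells, from 354, 222, 125 and 175 counts. The groups were far apart, and the log2 fold change was −1.40 (SE 0.24, adjusted p = 0.0297 in edgeR). FANCA shares 19.6% of its exon bases with ZNF276 on the other strand, whose mean was 7.20 CPM in control cells and 4.08 CPM after treatment (log2 fold change −0.82, SE 0.32, adjusted p = 0.243 in edgeR), so reads of the overlap could not be assigned with certainty. Without control replicate 1, in a fit with a single control library that called few genes, FANCA did not pass. Its log2 fold change there was −1.23. FANCD2 was at 43.99 and 39.1 CPM in control cells and 27.3 CPM in each treated library. On this scale its groups were separate (log2 fold change −0.61, SE 0.19, adjusted p = 0.175 in edgeR), whereas on the FPKM scale they overlapped, at 30.1 and 33.3 FPKM against 19.2 and 30.8 FPKM (−0.37 on log2(FPKM + 1)). FANCL was at 122 and 117 CPM in control cells and 91.9 and 86.1 CPM in treated cells, again with no overlap (log2 fold change −0.43, SE 0.16, adjusted p = 0.234 in edgeR, and −0.28 on log2(FPKM + 1)).

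FANCI, the partner of FANCD2, was at 135 and 148 CPM in control cells and 88.3 and 127 CPM in treated cells, a log2 fold change of −0.39 (SE 0.20). In FPKM its groups overlapped, at 118 and 145 FPKM against 70.0 and 121 FPKM. The core subunits FANCE (−0.79), FANCG (−0.29) and FANCF (−0.18) also had separate groups in CPM, but their levels of 1.96 to 16.4 CPM left SEs of 0.23 to 0.42. In FPKM the groups of FANCG overlapped (20.1 and 21.7 FPKM against 13.2 and 25.2 FPKM) and those of FANCF met at 5.06 FPKM. The groups of FANCB (−0.10), FANCC (0.24), the anchor protein FANCM (−0.05), the helicase BRIP1 (−0.17) and USP1 (−0.03) overlapped. FANCC, a core subunit, was thus the only Fanconi member with a log2 fold change above 0.

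Of the 12 homologous recombination genes, 7 were below 0 in NCI-H716 (50.6% of all genes were), and the median log2 fold change was −0.13. In CPM, 5 of the 12 had both treated libraries below both controls (25.1% of all genes did). XRCC2 was at 17.5 and 15.7 CPM in control cells and 8.63 and 11.6 CPM in treated cells. It stood at 61.0% of the control level, with separate groups (log2 fold change −0.71, SE 0.25, adjusted p = 0.209 in edgeR). RAD51AP1, which helps to pair DNA strands, was at 78.0 and 82.4 CPM in control cells and 65.1 and 53.4 CPM in treated cells (log2 fold change −0.44, SE 0.18, adjusted p = 0.258 in edgeR), and its log2 fold change was −0.29 without Z325 replicate 2. BARD1 (−0.37), RAD54L (−0.45) and RAD51C (−0.13) had separate groups as well. In FPKM those of RAD51C overlapped, at 156 and 182 FPKM against 146 and 158 FPKM. For BARD1 the difference depended on the scale: 45.1 and 47.9 CPM against 37.0 and 34.9 CPM, but 19.9 and 35.6 FPKM against 10.5 and 15.3 FPKM. EXO1, the member that fell in HCT116, was at 39.8 and 49.4 CPM in control cells and 31.5 and 40.5 CPM in treated cells, and its groups overlapped (log2 fold change −0.30, SE 0.21). The 5 members above 0 were BRCA1 (0.14), BRCA2 (0.08), PALB2 (0.20), RAD54B (0.06) and RBBP8 (0.24). PALB2 ties the BRCA1 and BRCA2 proteins together, and RBBP8 encodes the resection factor CtIP. Each of the 5 had overlapping groups in CPM, as did the helicase gene BLM (−0.13). In FPKM both treated libraries lay above both controls for PALB2, RAD54B and RBBP8. PALB2 was at 6.03 and 8.15 FPKM against 10.65 and 10.2 FPKM, and RBBP8 at 54.5 and 71.7 FPKM against 78.2 and 89.0 FPKM.

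Mismatch and uracil repair was the role with the highest median in NCI-H716, at 0.14 over 5 members. PMS2 was at 14.2 and 14.9 CPM in control cells and 17.4 and 17.3 CPM in treated cells (log2 fold change 0.26, SE 0.22). In CPM it was the only member of the 44 with both treated libraries above both controls. In FPKM this held for PMS2 and also for ATR, PALB2, RAD54B and RBBP8. UNG, which cuts uracil out of DNA, lay on the other side, at 25.97 and 23.1 CPM against 20.5 and 17.1 CPM (log2 fold change −0.39, SE 0.22). MSH6 was at 85.9 and 87.0 CPM in control cells and 75.0 and 89.5 CPM in treated cells, so that its groups overlapped. MSH3 (0.21) and PMS1 (0.14) overlapped likewise, and no gene of this role reached an unadjusted p of 0.05. In FPKM both treated libraries of PMS1 lay below both controls, at 18.9 and 18.5 FPKM against 17.2 and 13.8 FPKM.

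The 6 checkpoint genes of NCI-H716 had a median log2 fold change of −0.25, and none reached an unadjusted p of 0.05. CHEK1, the kinase that ATR switches on, was at 40.7 and 46.6 CPM in control cells and 31.7 and 35.5 CPM in treated cells (log2 fold change −0.38, SE 0.19). A gene transcribed from the opposite strand covers 13.4% of the exons of CHEK1, which makes its counts uncertain. CHEK2, the kinase that ATM switches on, was at 35.7 and 32.7 CPM against 29.8 and 26.4 CPM (log2 fold change −0.29, SE 0.19), and like PMS2 it has pseudogene copies. CLSPN was at 77.2 and 85.5 CPM against 53.6 and 76.7 CPM (log2 fold change −0.32, SE 0.20). These 3 had both treated libraries below both controls in CPM (25.1% of all genes did). The groups of TIMELESS (−0.21), a fork protection gene, ATR (−0.15) and ATM (0.16) overlapped in CPM. In FPKM both treated libraries of ATR lay above both controls, at 12.85 and 15.1 FPKM against 15.6 and 18.3 FPKM. The groups of ATM overlapped in FPKM too, with a mean of 17.5 FPKM in control and 14.9 FPKM in treated cells. In FPKM the groups of CHEK1 overlapped, at 24.6 and 26.7 FPKM against 17.2 and 24.9 FPKM. Those of CLSPN did too, at 14.7 and 16.55 FPKM against 10.7 and 15.8 FPKM.

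**Figure D3:**
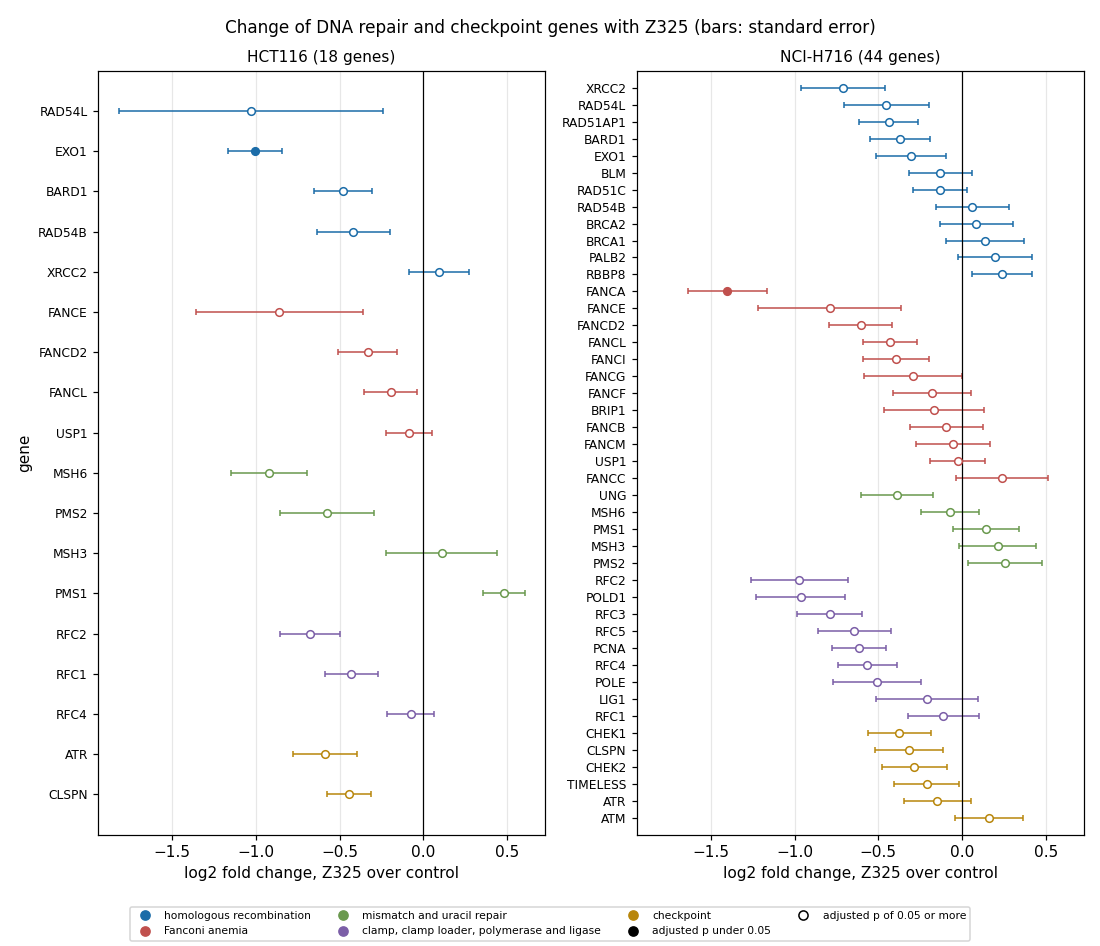
Log2 fold change of each member, Z325 over control, with its standard error as a bar, for the 18 members of HCT116 on the left and the 44 of NCI-H716 on the right, coloured by role. Filled points passed an adjusted p of 0.05, which EXO1 did in HCT116 and FANCA in NCI-H716.

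The difference between the lines was tested itself, as the interaction of line and treatment over all 8 libraries on 7642 genes. By edgeR's quasi-likelihood test, 0 of the 18 shared members passed an adjusted p of 0.05 (0.0654% of all genes did) and 4 had an unadjusted p under 0.05 (14.3% of all genes). DESeq2 and limma also called 0 of the 18, but the limma fits called few genes at all (0.00554% to 0.0658% with a negative difference and 0 with a positive one). MSH6 had the smallest p: its log2 fold change was −0.92 in HCT116 and −0.07 in NCI-H716, a difference of 0.83 (SE 0.25, adjusted p = 0.195 in edgeR). EXO1 (−1.01 against −0.30) differed by 0.69 (SE 0.27) and PMS2 (−0.57 against 0.26) by 0.82 (SE 0.37), also toward lower values in HCT116. The difference of PMS2 was 0.52 without control replicate 1 of HCT116. XRCC2 went the other way, with 0.09 in HCT116 and −0.71 in NCI-H716, a difference of −0.82 (SE 0.31). Adjusted p-values of these 3 ran from 0.264 to 0.335 in edgeR. Members with near values in both lines included CLSPN (−0.44 and −0.32, difference 0.12, SE 0.26) and BARD1 (−0.48 and −0.37, difference 0.10, SE 0.24), where the difference was smaller than its standard error. The 18 shared members had a median log2 fold change of −0.31 in NCI-H716, and the 26 outside the HCT116 table one of −0.21.

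**Figure D4:**
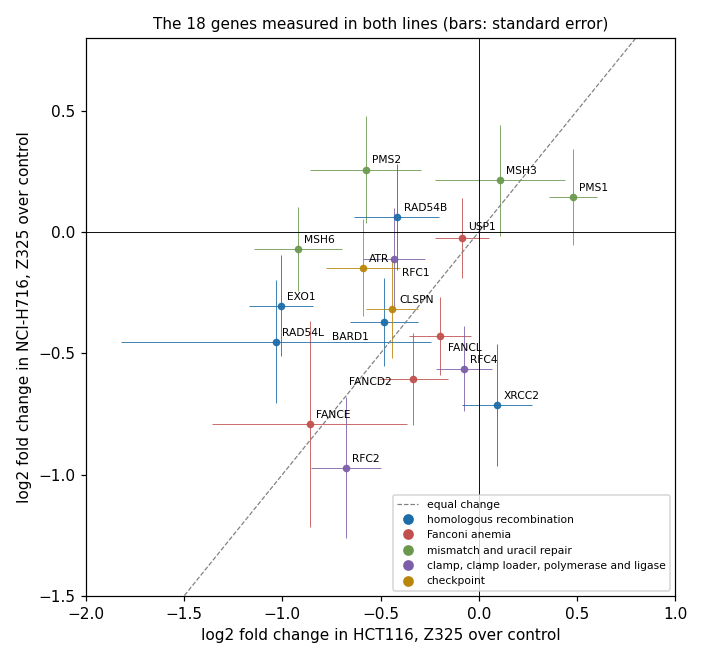
Log2 fold change with Z325 of the 18 members measured in both lines, HCT116 across and NCI-H716 up, with standard errors as bars and colours by role. EXO1 and MSH6 lie left of the dashed line of equal change, at −1.01 and −0.92 in HCT116, while XRCC2 and RFC4 lie below it.

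Other genes of the same pathways, taken from a list that leaves out the members, gave few calls. In HCT116, 39 of 41 such genes were tested, and 24 had a log2 fold change below 0 (51.8% of all genes did), with a median of −0.25. By edgeR's quasi-likelihood test, PRIM2 and POLD2 fell and XRCC4 rose at an adjusted p under 0.05 (2.94% of all genes were lower and 2.83% higher). PRIM2, a primase subunit, was at 54.6 and 52.8 CPM in control cells and 22.1 and 21.8 CPM in treated cells (log2 fold change −1.29, SE 0.22, adjusted p = 0.0171 in edgeR). POLD2, the accessory subunit of polymerase delta, was at 236 and 357 CPM against 105 and 143 CPM (log2 fold change −1.27, SE 0.23, adjusted p = 0.0199 in edgeR). XRCC4, which holds DNA ligase in end joining, rose from 731 and 727 CPM to 1122 and 1112 CPM (log2 fold change 0.62, SE 0.12, adjusted p = 0.0245 in edgeR). In NCI-H716, all 102 listed genes were tested, 73 of them below 0, with a median of −0.17, and 0 passed the adjusted threshold in edgeR, while 15 were lower and 2 higher at an unadjusted p under 0.05. The smallest p belonged to POLE3, an accessory subunit of polymerase epsilon, at 101 and 90.4 CPM against 62.9 and 45.9 CPM (log2 fold change −0.82, SE 0.20, adjusted p = 0.115 in edgeR). Of the 17 other replication fork genes, 16 were below 0, with a median of −0.39, and of the 16 genes of nucleotide excision and direct repair 9 were, with a median of −0.02.

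Genes of DNA replication licensing and of mitosis, which mark dividing cells, lay mostly below 0 in both lines, as the members did. In HCT116, 7 of 11 licensing genes (median −0.40) and 20 of 21 mitosis genes (median −0.65) had a log2 fold change below 0 (51.8% of all genes did). At an adjusted p under 0.05 in edgeR, 4 of these licensing genes and 11 of these mitosis genes were lower (2.94% of all genes). In NCI-H716, 17 of 20 licensing genes (median −0.34) and 34 of 39 mitosis genes (median −0.38) were below 0 (50.6% of all genes were). In edgeR, 0 of them were lower at the adjusted threshold (0.099% of all genes). At an unadjusted p under 0.05, 8 licensing and 18 mitosis genes were lower (9.27% of all genes). MKI67, which marks cycling cells and was measured in NCI-H716, was at 137 and 159 CPM in control cells and 85.5 and 129 CPM in treated cells (log2 fold change −0.46, SE 0.21, adjusted p = 0.299 in edgeR). On the FPKM scale its groups overlapped, at 20.1 and 25.2 FPKM against 16.2 and 28.1 FPKM. What part the share of dividing cells had in the members' values was not tested.

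Promoters with and without an E2F motif overlapped widely in the change of their genes. In NCI-H716, the 9 members with the motif had a median log2 fold change of −0.39 and ranged from −1.40 (FANCA) to 0.26 (PMS2), and the 33 members without it had a median of −0.21 and ranged from −0.97 to 0.24. The CCAAT box had the opposite order, with a median of −0.18 in the 23 members that hold it and −0.30 in the 19 that do not. In HCT116 the E2F motif was present in MSH3 and PMS2 alone, and EXO1, the member that fell there, had neither motif in the stretch printed above.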

How the data were processed

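RNA was measured in 8 libraries of 2 cell lines, 2 control and 2 Z325-treated per line. For NCI-H716, the authors deposited RSEM's expected counts, FPKM and TPM per gene and library. Expected counts were rounded to whole numbers, and TPM was not used. For HCT116, the authors deposited raw read counts in the layout of featureCounts. The methods name TrimGalore, STAR with GRCh38 and RSEM, while the submitters' processing notes list Bowtie2 2.5.0, featureCounts and hg38. How shared reads were assigned is not given in the sources used here. Of 28047 lines in the HCT116 table, 4 broken ones were left out. FPKM of HCT116 was computed here from the counts, exon lengths and listed totals.

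Each line was fitted alone in edgeR 4.0.16 (TMM normalization, filterByExpr, quasi-likelihood test without a replicate block), with Benjamini-Hochberg adjustment over all genes tested. CPM values are TMM-normalized. Standard errors are the log2 fold change divided by the square root of F. With 2 libraries against 2, an exact permutation test of a single value cannot go below p = 0.333. Coordinates and overlaps came from GENCODE v44 and promoters from RefSeq. The members and the other gene lists were chosen with earlier results of these data known. Adjusted p-values are given for members past 0.05 and up to 10 others per line with the smallest p, and for up to 5 other pathway genes per line. Some of the other pathway genes that this rule names are not reported here. The steps were tested on simulated data. Alternatives were DESeq2 1.42.0, library size alone, other filters, limma 3.58.1 on log2(FPKM + 1 or 0.1), a replicate block, thinning to the shallowest library, all 8 libraries in 1 fit, and leaving out each library. Scripts ran in R 4.3.3 and in Python 3.11.15 with pandas 2.3.3, and plots were drawn with matplotlib 3.10.9.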

Additional observations from a re-analysis of the deposited data

How the results depend on the processing

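Counts of members lower at an adjusted p under 0.05 moved with the setting. No log2 fold change of a single gene followed across the settings reversed its sign. Those genes were picked for small p-values in the main fit, so a reversal was unlikely from the start. In HCT116, edgeR called 1 lower (EXO1) and 0 higher. The lower count was 3 (EXO1, MSH6 and RFC2) with DESeq2, with a minimum of 10 counts and with no filter (2.5%, 7.06% and 2.85% of all genes were lower). It was 2 with library size alone, the thinned libraries, all 8 libraries in 1 fit and the replicate block (3.14% to 4.22% of all genes). Each of the 3 limma fits on FPKM called 0 members lower. These fits called at most 0.241% of all genes lower, so their counts say little about the members. Leaving out 1 library gave 0 to 5 lower (0 without either control, 3 without Z325 replicate 1, where 7.8% of all genes were lower, 5 without the shallow Z325 replicate 2, where 7.92% were), and 0 to 1 higher (PMS1, without Z325 replicate 2). PMS1 was called with DESeq2 and after thinning, 1 higher in each. In NCI-H716, edgeR called 1 lower (FANCA) and 0 higher. The lower count was 4 with DESeq2 and with no filter (FANCA, PCNA, RFC2 and RFC3, where 0.46% and 1.52% of all genes were lower). It was 0 in each limma fit, where at most 0.023% of all genes were lower. It was also 0 with only the genes of the HCT116 table or all 8 libraries in 1 fit, which leave FANCA out. Leaving out 1 library moved this count as well, and the log2 fold change of FANCA then ran from −1.54 to −1.23. The replicate block gave 12 lower in NCI-H716, where it called 9.45% of all genes lower. Replicate numbers share only a number here, with correlations of deviations of −0.02 in HCT116 and 0.29 in NCI-H716. The median over the members ran from −0.49 to −0.35 in HCT116 and from −0.33 to −0.12 in NCI-H716. No alternative called a member in the difference between the lines, or higher in NCI-H716.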

Other observations

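Repair pathways outside the members were described by counts and medians over the same fits, with no explanation sought. In HCT116, 6 of 7 base excision repair genes were tested and 4 had a log2 fold change below 0 (median −0.17), as 51.8% of all genes did. OGG1, the glycosylase that removes oxidized guanine, was at 16.8 and 23.9 CPM in control cells and 8.05 and 3.44 CPM in treated cells. Its groups were separate, and the log2 fold change of −1.73 (SE 0.43, adjusted p = 0.0540 in edgeR) rested on 12 counts in the shallow Z325 replicate 2. Of the 6 end joining genes, 5 were below 0 (median −0.46), while XRCC4 rose. In NCI-H716, 13 of 17 base excision repair genes were below 0 (median −0.18), as 50.6% of all genes were. NEIL3, a glycosylase of replicating cells, was at 35.1 and 25.4 CPM in control cells and 13.9 and 17.6 CPM in treated cells (log2 fold change −0.94, SE 0.24, adjusted p = 0.124 in edgeR). Of the 11 end joining genes, 7 were below 0 (median −0.07). PAXX, an end joining scaffold protein, was at 15.5 and 8.73 CPM in control cells and 5.42 and 2.66 CPM in treated cells (log2 fold change −1.61, SE 0.40, adjusted p = 0.120 in edgeR). Replication fork genes with small p-values in NCI-H716 included POLA1, the catalytic subunit of polymerase alpha, at 26.05 and 32.4 CPM against 14.6 and 17.2 CPM (log2 fold change −0.87, SE 0.22, adjusted p = 0.122 in edgeR), and POLE4, a small subunit of polymerase epsilon, at 273 and 258 CPM against 191 and 170 CPM (log2 fold change −0.56, SE 0.16, adjusted p = 0.155 in edgeR). In each of these 5 genes both treated libraries lay below both controls, and none passed the adjusted threshold.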
